A study of Mus musculus with 8 samples.

Results

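Ido1 and Wars encode the enzymes at a branch in tryptophan use. Ido1, indoleamine 2,3-dioxygenase 1, opens the tryptophan ring as the first step of the kynurenine pathway, and Wars, the cytosolic tryptophanyl-tRNA synthetase, loads tryptophan onto its tRNA for protein synthesis. Both genes are known targets of interferon-gamma (IFN-γ), and dendritic cells that break down tryptophan through Ido1 are known for dampening T cell responses. When tryptophan runs short, uncharged tRNA activates the kinase GCN2, which slows translation and induces ATF4 and its targets, while Wars supplies charged tRNA.

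The members were every probe set that the array's annotation assigns to Ido1 or Wars, each kept apart. They were 5 of 12422 probe sets tested, namely 2 of Ido1 and 3 of Wars, or 2 of 8251 genes that have a probe set with 1 gene symbol. The cells were CD8+ dendritic cells, the cross-presenting subset of the spleen, purified from female DBA/2J mice aged 60 days that had all received 10 µg of Flt3-L, a growth factor that expands dendritic cells, over 9 days. Cells were cultured with 200 U/ml mouse IFN-γ or in medium alone, for 4 h or for 16 h, with 2 arrays in each of the 4 groups and 8 in all. No label ties an array to its own mouse or culture, so p-values measure the spread between arrays, which may be technical. The values are intensities of an older 3'-biased array on a linear scale, and a log2 difference of 1 is a doubling.

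The arrays had median intensities of 51.3 to 53.7. Arrays of the same group correlated at 0.989 to 0.997 over all probe sets, least in the 16 h IFN-γ group. The Actb 3' to 5' ratio was 1.47 and 1.65 in IFN-γ at 4 h and 2.04 and 2.20 in medium at 4 h, against 1.57 to 1.68 in the 16 h groups. The Gapdh ratio was also highest in medium at 4 h, at 1.14 and 1.31. It was 0.876 and 0.918 in IFN-γ at 4 h and 0.827 to 0.906 in the 16 h groups. The part of these ratios in the results below was not tested. Of 11 measured marker genes of CD8+ dendritic cells, 8 were above the median of the antisense control probe sets in every group, among them Cd8a at 429 to 542 and Itgax at 70.2 to 91.3, while Itgae and Cd36 were above it in none. Marker genes of other cells were also above it in every group, 8 of 11 for macrophages and monocytes and 6 of 6 for B cells. The same held for 6 of 7 T cell markers and 6 of 7 neutrophil markers, and no marker was at 0. Of all 8251 genes, 5055 were above it in at least 1 group. The summed macrophage markers were 1337 and 1348 in IFN-γ and 1780 and 1828 in medium at 4 h, and 3363 and 4208 in IFN-γ and 4631 and 5456 in medium at 16 h. The sum moved with both culture time and IFN-γ, and Lyz2 was its brightest marker (407 and 412 in IFN-γ, 698 and 756 in medium at 4 h). With culture time every measured macrophage marker but Spic was higher at 16 h than at 4 h, in medium and under IFN-γ. With IFN-γ the markers had no common direction. Fcgr1 read 81.5 and 107 in IFN-γ, against 67.8 and 71.4 in medium at 4 h. C1qb read 235 and 284 in IFN-γ, against 212 and 209 in medium at 16 h. The part of these markers in the results below was not tested.

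A probe set that reads no message still has an intensity, so each member was set beside the 15 antisense control probe sets of its own array, which are built on the opposite strand of the array's control genes. The median of these controls was between 44.9 and 61.2 on the 8 arrays. The Wars probe set 98605_at lay above all 15 controls on every array, at 4.10 to 10.1 times their median. The Wars probe set 98606_s_at lay above 13 to 15 of them, at 1.61 to 9.39 times their median. The third Wars probe set, 161337_f_at, lay above 6 to 13 of them, at 0.897 to 1.98 times their median, and only the 2 arrays of medium at 16 h were under the median. Wars therefore had readings clear of these controls in every group from 98605_at, and readings close to them from 161337_f_at.

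Neither Ido1 probe set was clear of the controls. The Ido1 probe set 161824_r_at stood at 0.921 to 1.16 times the antisense median and above 6 to 10 of the 15 controls, in the middle of all probe sets on the array (percentiles 47.5 to 55.2). The Ido1 probe set 97731_at stood at 0.285 to 0.573 times the antisense median. It was above 3 and 4 of the controls on the IFN-γ arrays at 4 h and below all 15 on both medium arrays at 4 h. At 16 h it was above 2 of them on 1 IFN-γ array and below all 15 on the other and on both medium arrays. At these intensities a level of Ido1 message cannot be separated from the signal of probes that match none, and neither expression nor its absence can be read from them.

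**Figure D1:**
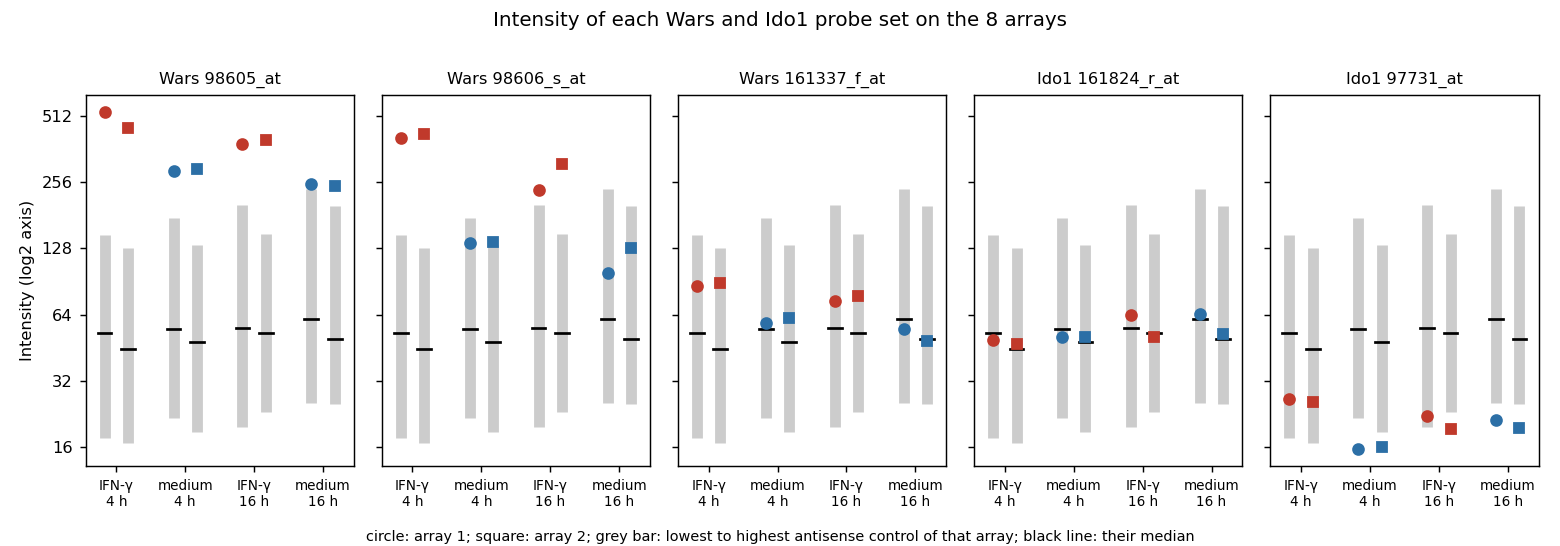
Intensity (log2 scale on the vertical axis) of the 3 Wars and 2 Ido1 probe sets on each of the 8 arrays, by group, with the antisense controls of the same arrays for comparison. The Wars probe set 98605_at lies above all 15 antisense controls in every group, while Ido1 161824_r_at stays within 0.921 to 1.16 times their median and Ido1 97731_at stays under it.

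Wars was higher with IFN-γ than in medium on all 3 of its probe sets at 4 h, by 0.55 to 1.60 on the log2 scale, and 2 of the 3 passed the test. The probe set 98606_s_at read 403 and 422 in IFN-γ at 4 h, against 136.01 and 136.08 in medium at 4 h. Its group means were 8.69 ± 0.05 in IFN-γ and 7.09 ± 0.00 in medium (log2, SD, n = 2 each), so the gap was far wider than the spread between arrays. It rose by 1.60 (standard error 0.16, 95% interval 1.23 to 1.97), with an adjusted p of 0.00439 by limma with Benjamini-Hochberg adjustment over all probe sets, and ranked 13 among all probe sets by size of the rise. These are bulk samples, in which fewer cells of a type and less RNA per cell cannot be told apart.

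The brightest Wars probe set, 98605_at, read 534 and 449 in IFN-γ at 4 h, against 288 and 294 in medium at 4 h. The groups did not overlap, although the 2 IFN-γ arrays differed more from each other than the 2 medium arrays. It rose by 0.75 (standard error 0.12, 95% interval 0.49 to 1.02), with an adjusted p of 0.0436 by limma. The dim probe set 161337_f_at read 86.4 and 89.0 in IFN-γ at 4 h, against 58.4 and 61.6 in medium at 4 h. Its groups did not overlap either, and its difference of 0.55 (95% interval 0.30 to 0.80) had an adjusted p of 0.139, and 0.0262 in a fit that also holds the replicate number (the block). The 3 probe sets lay on the same side of 0 in both pairs of arrays.

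The background at 4 h was low for calls and high for separation. Of all probe sets, 0.258% were called higher with IFN-γ (32 in all, and 1.09% with the block), and of all genes 0.279%, which stands beside the 2 of 3 Wars probe sets called. The 2 arrays of IFN-γ lay above both medium arrays in 15.4% of all probe sets and below both in 17.9%, so the 3 of 3 Wars probe sets without overlap say little by themselves. The call of 98605_at was lost when any 1 of the 4 arrays of 4 h was left out (adjusted p = 0.164 to 0.556) or either medium array of 16 h (0.0678 without each). The call of 98606_s_at was lost when any 1 of the 4 arrays of 4 h was left out (adjusted p = 0.0549 to 0.0766), where its difference stayed at 1.57 to 1.63.

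At 16 h the Wars differences had the same sign, and 1 of the 3 probe sets passed the test, against 3 with the block. The probe set 98606_s_at read 236 and 309 in IFN-γ at 16 h, against 98.4 and 129 in medium at 16 h. The higher array in each group was the one with number 2, and each of the same-numbered pairs differed by 1.26. It rose by 1.26 (95% interval 0.89 to 1.63), with an adjusted p of 0.0177 by limma. In all, 0.161% of probe sets were called higher at 16 h (20, and 0.411% with the block) and 0.182% of genes.

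The probe set 98605_at read 381 and 397 in IFN-γ at 16 h, against 251 and 247 in medium at 16 h. The arrays of each group lay close together and the groups did not overlap, as in 9.1% of all probe sets for a higher reading. Its difference was 0.64 (95% interval 0.38 to 0.91), with an adjusted p of 0.0922 by limma and 0.0155 with the block. The probe set 161337_f_at read 73.9 and 77.5 in IFN-γ at 16 h, against 54.9 and 48.8 in medium at 16 h. Its difference of 0.55 (95% interval 0.30 to 0.80) had an adjusted p of 0.149, and 0.0302 with the block. The call of 98606_s_at at 16 h was lost when the fit held only the 4 arrays of 16 h (adjusted p = 0.204), when a pseudocount of 16 was added before the log (0.0575), without either IFN-γ array of 4 h (0.0591 each), without either medium array of 4 h (0.0586 each), without IFN-γ array 2 of 16 h (0.0504) and without medium array 1 of 16 h (0.115).

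Ido1 did not pass the test in the main limma fit at either time. At 4 h 97731_at passed with the block (adjusted p = 0.00511 by limma). It also passed without the block under some other processing, such as quantile scaling (0.0201) and median centring (0.0415). The probe set 161824_r_at read 49.1 and 47.3 in IFN-γ at 4 h, against 50.8 and 50.9 in medium at 4 h. Both IFN-γ arrays were just under both medium arrays, and the difference was -0.08 (95% interval -0.40 to 0.25), which was not called. At 16 h it read 64.1 and 50.8 in IFN-γ, against 64.5 and 52.3 in medium, with the array numbered 1 high in both groups. The groups overlapped and the difference was -0.02 (95% interval -0.35 to 0.30).

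The dimmer Ido1 probe set, 97731_at, read 26.4 and 25.7 in IFN-γ at 4 h, against 15.7 and 16.1 in medium at 4 h. The groups stood well apart for their spread, but every reading was under the antisense median of its array. The difference was 0.71 (95% interval 0.45 to 0.97), with an adjusted p of 0.0518 by limma and 0.00511 with the block. At 16 h it read 22.3 and 19.4 in IFN-γ, against 21.2 and 19.6 in medium, so the groups overlapped. The difference at 16 h was 0.03 (95% interval -0.23 to 0.29). Of the 2 Ido1 probe sets, 0 were called at 4 h in limma, 1 with the block and 1 at an unadjusted p under 0.05, and at 16 h 0 were called by any of these. Of all 12422 probe sets at 4 h, 32 were called in limma, 157 with the block (1.26%) and 499 at an unadjusted p under 0.05.

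**Figure D2:**
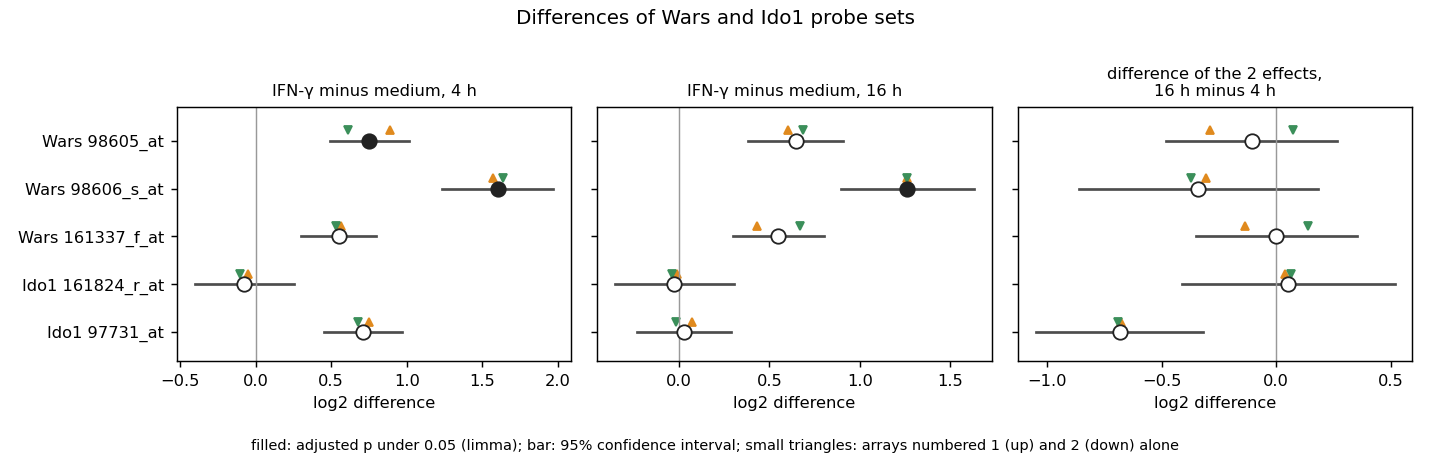
Log2 difference of IFN-γ minus medium at 4 h and at 16 h, and the difference of these effects, for the 5 probe sets of Wars and Ido1, with 95% intervals from limma, filled circles for an adjusted p under 0.05 and small triangles for each same-numbered pair of arrays. The 3 Wars probe sets lie above 0 at both times (0.55 to 1.60), while Ido1 97731_at lies at 0.71 at 4 h and 0.03 at 16 h and Ido1 161824_r_at lies at -0.08 and -0.02.

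The effects of IFN-γ at 16 h and at 4 h were set against each other in 1 test. No probe set of the array was called in this comparison by limma (0%, with 353 at an unadjusted p under 0.05), and 30 were with the block, all with the lower effect at 16 h, or 0.242% of all. For Wars the difference of effects was -0.34 on 98606_s_at (95% interval -0.86 to 0.18), -0.11 on 98605_at (-0.48 to 0.26) and 0.00 on 161337_f_at (-0.35 to 0.35). Each interval held 0, and with it differences of up to 0.86 in size, so equal effects at both times were not shown. For Ido1 97731_at the effect at 16 h was lower by 0.68 (difference -0.68, 95% interval -1.05 to -0.32), with an adjusted p of 0.672 by limma and 0.0940 with the block.

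Neither gene had a probe set called in limma with culture time. In medium the 3 Wars probe sets were lower at 16 h than at 4 h by 0.21 to 0.27, none of them called (adjusted p = 0.389 to 0.467), while 2.57% of all probe sets and 3.04% of genes were called lower. No 16 h reading of Wars in medium reached its 4 h readings, and such separation was present in 20.8% of probe sets for a lower reading. Under IFN-γ the Wars probe set 98606_s_at was lower at 16 h by 0.61, with an adjusted p of 0.101 by limma and 0.00948 with the block. The other 2 were lower by 0.33 (98605_at, adjusted p = 0.216) and 0.21 (161337_f_at, adjusted p = 0.457). Under IFN-γ, 1.3% of probe sets were called lower with time (6.94% with the block) and 1.61% of genes, and 17.7% were lower without overlap.

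The 2 Ido1 probe sets were both higher at 16 h than at 4 h in medium, without overlap, as were 30.8% of all probe sets. The differences were 0.36 on 97731_at (adjusted p = 0.140 by limma, 0.0362 with the block) and 0.19 on 161824_r_at (0.569). In medium 1.71% of probe sets were called higher with time, or 4.52% with the block. Under IFN-γ the 2 probe sets went opposite ways, with 161824_r_at at 0.24 (adjusted p = 0.518), as in the 21.6% of probe sets higher without overlap, and 97731_at at -0.33 (0.216). Among all probe sets 0.821% were called higher with time under IFN-γ.

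All 3 Wars probe sets gave the same order of levels, with no overlap between any neighbouring groups: IFN-γ at 4 h, then IFN-γ at 16 h, then medium at 4 h, then medium at 16 h. This order without overlap was found in 14 of 12422 probe sets (0.113%), 3 of which are those of Wars. It was chosen after the Wars values were seen and is given with no test. Of the neighbours with a test, neither the 2 IFN-γ groups nor the 2 medium groups differed past the threshold in limma on any Wars probe set. The 2 Ido1 probe sets followed no shared order. The probe set 97731_at was highest in IFN-γ at 4 h and lowest in medium at 4 h, and 161824_r_at was highest in medium at 16 h and lowest in IFN-γ at 4 h.

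The Wars probe sets followed each other closely over the 8 arrays, with Pearson correlations of 0.950 to 0.969 between their log2 values. The 2 Ido1 probe sets, which carry the same gene symbol, correlated at 0.012. Against the Wars probe sets, Ido1 97731_at stood at 0.653 to 0.693 and Ido1 161824_r_at at -0.481 to -0.353. These correlations describe 8 arrays in 4 groups and share the arrays' scaling, and no p is given for them.

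Wars was next set beside the other synthetases that charge tRNAs in the cytosol, each by its brightest probe set. Of 21 such genes listed, 19 were measured, Wars among them. With IFN-γ at 4 h, the other 18 lay between -0.33 (Eprs, which charges glutamate and proline tRNAs) and 0.25 (Farsb, a subunit of the phenylalanine enzyme), with a median of 0.00, against 0.75 for Wars. None of the 18 was called in limma. With IFN-γ at 16 h, the 18 lay between -0.08 (Nars, for asparagine) and 0.47 (Vars, for valine, adjusted p = 0.881), with a median of 0.07, and none was called, against 0.64 for Wars. No other synthetase of the list was above Wars in either comparison. Calls were rare, with 0.279% of all genes called higher with IFN-γ at 4 h and 0.182% at 16 h. That none of the 18 was called therefore says little by itself.

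With culture time, at 16 h against 4 h, synthetases other than Wars were called lower. In medium 7 of the other 18 fell by the test, and 12 with the block, with a median of -0.53 and 17 of 18 below 0. Over all 8251 genes, 251 fell by the test in medium (3.04%), and 805 with the block. Eprs fell by 1.26, reading 24.4 and 31.4 in medium at 16 h, against 59.7 and 73.4 in medium at 4 h. Its 16 h readings lay under the antisense median of their arrays, and its 4 h readings above it. Gars, for glycine, fell by 1.01, Iars, for isoleucine, by 0.85, Lars, for leucine, by 0.69 and Aars, for alanine, by 0.65. Under IFN-γ 3 of the 18 fell by the test (Gars by 0.75, Lars by 0.61 and Cars, for cysteine, by 0.52), and 12 with the block, with a median of -0.50. Over all 8251 genes, 133 fell by the test under IFN-γ (1.61%), and 666 with the block. By its brightest probe set, 98605_at, Wars was at -0.23 in medium and -0.33 under IFN-γ. Each was nearer 0 than the median of the other 18. The Wars probe set 98606_s_at was also nearer 0 in medium, at -0.27, but further from 0 under IFN-γ, at -0.61. The Wars probe set 161337_f_at was at -0.21 in both. Whether Wars differs from the other synthetases was not tested.

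**Figure D3:**
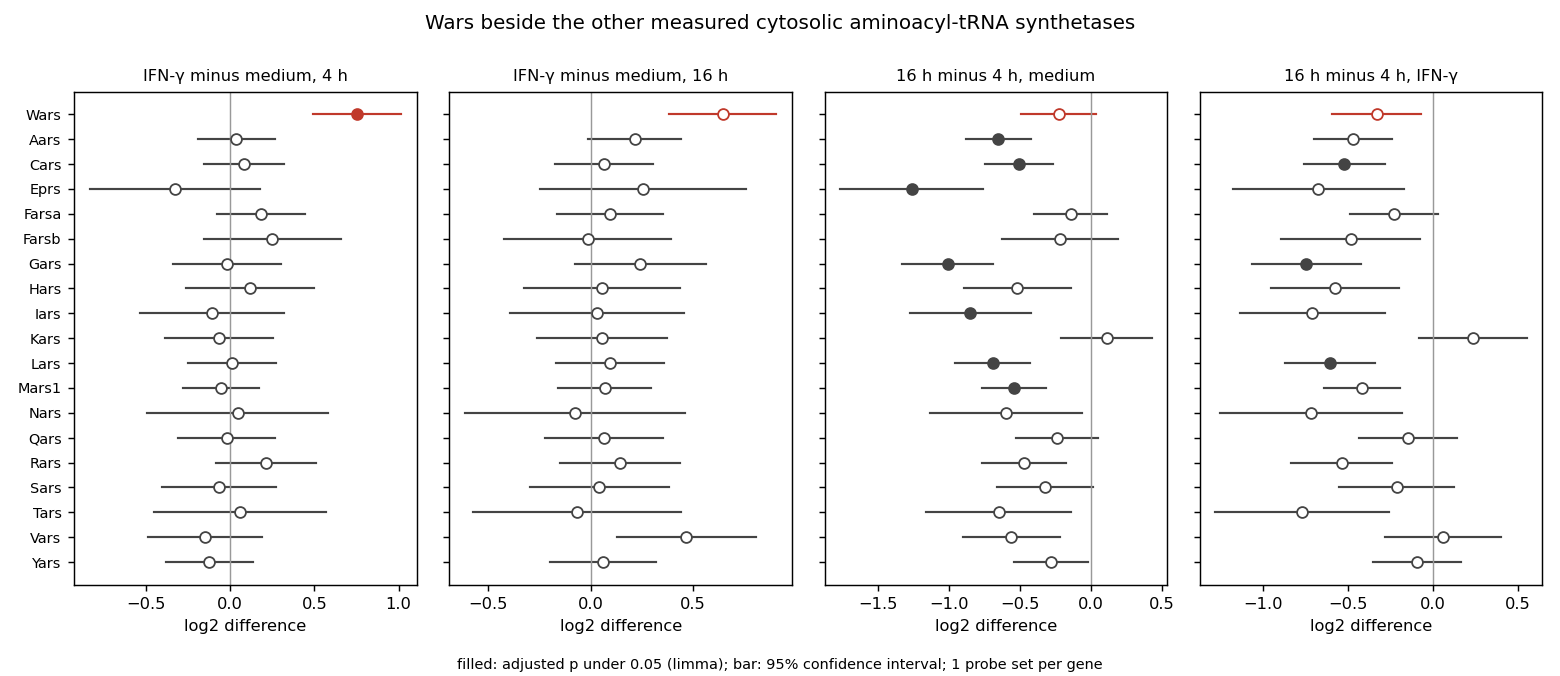
Log2 difference of each measured cytosolic aminoacyl-tRNA synthetase, 1 probe set per gene, with IFN-γ over medium at 4 h and 16 h and with culture time, 16 h over 4 h, in medium and under IFN-γ. Wars stands at 0.75 and 0.64 with IFN-γ, where the other 18 lie between -0.33 and 0.47, while with time most of the 18 lie under 0.

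The mitochondrial synthetases were measured by 5 of 17 listed genes (Fars2, Iars2, Rars2, Sars2 and Tars2), and none was called with IFN-γ. Wars2, the mitochondrial tryptophan enzyme, was not measured. The scaffold genes of the synthetase complex, Aimp1 and Aimp2, were also not called with IFN-γ. As 0.279% of all genes were called higher at 4 h and 0.182% at 16 h, this lack of calls says little by itself.

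The rest of the kynurenine pathway was thinly covered. Of 15 listed genes, 5 were measured: Ido1, Tdo2 (the liver tryptophan dioxygenase), Aadat and Kyat3 (aminotransferases of kynurenine) and Got2 (the mitochondrial aspartate aminotransferase). Each gene was counted by its brightest probe set, which for Ido1 is 161824_r_at and not 97731_at. By these probe sets none was called with IFN-γ at 4 h or 16 h in limma, none with the block and none at an unadjusted p under 0.05. The medians were -0.02 at 4 h and -0.05 at 16 h, against -0.01 and 0.00 over all genes. Among all genes 0.279% were called higher at 4 h and 0.182% at 16 h, so a short list without calls says little. Tdo2 read 20.3 to 21.7 in IFN-γ and 20.8 to 21.9 in medium at 4 h, and 22.6 to 25.4 in IFN-γ and 25.3 to 25.9 in medium at 16 h. Tdo2, Aadat and Kyat3 were under the antisense median in every group, so for these the levels cannot be read. Ido2, Kmo, Kynu, Haao, Qprt and Afmid had no probe set of their own here.

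Other users of tryptophan were measured by 6 of 10 listed genes, and none was called with IFN-γ in limma or with the block. This says little beside the 0.279% of all genes called higher at 4 h and 0.182% at 16 h in limma. Aldh2, an aldehyde dehydrogenase, rose with culture time, by 0.59 in medium (adjusted p = 0.0200) and by 0.66 under IFN-γ (0.0191). It read 380 and 357 in medium at 16 h, against 256 and 233 in medium at 4 h.

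Tryptophan enters cells by carriers of large neutral amino acids. Of 9 listed genes 5 were measured and none was called with IFN-γ in limma or with the block. Beside the 0.279% of all genes called higher in limma at 4 h and 0.182% at 16 h, this says little. Slc7a5, the light chain of the main carrier, read 276 and 273 in IFN-γ at 4 h, against 325 and 323 in medium at 4 h. Its groups did not overlap, but the difference of -0.24 was not called. With culture time Slc7a5 fell by 0.89 in medium (adjusted p = 0.00302) and by 0.55 under IFN-γ (0.0385). Slc3a2, its heavy chain, was at -0.07 at 4 h and 0.11 at 16 h with IFN-γ.

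The response to amino acid shortage was measured by 16 of 21 listed genes. With IFN-γ, 0 of 16 were called at 4 h or 16 h in limma and 0 with the block, and at an unadjusted p under 0.05 there was 1 at 4 h and 0 at 16 h. The medians were 0.04 at 4 h and 0.02 at 16 h. In limma 0.279% of all genes were called higher with IFN-γ at 4 h and 0.182% at 16 h, so 0 of 16 says little by itself. Asns, the asparagine synthetase induced by ATF4, was at 0.12 at 4 h and 0.07 at 16 h, Ddit3, the stress factor CHOP, at -0.11 and -0.09, and Atf3 at 0.46 and 0.34. Eif2ak4, which encodes GCN2, read 11.6 to 14.0 on the 8 arrays, under the antisense median on each, so its level cannot be read.

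Of these 16 genes, 3 fell with culture time in medium, and 6 with the block. Of all 8251 genes, 251 were called lower in medium (3.04%), and 805 with the block. There Psat1, an enzyme of serine synthesis, fell by 1.25 (adjusted p = 0.00612 by limma), Atf4 by 0.58 (0.0337) and Ppp1r15a, the GADD34 phosphatase subunit, by 0.54 (0.0424). Atf4 read 581 and 593 in medium at 16 h, against 914 and 841 in medium at 4 h. Under IFN-γ Psat1 fell by 1.06 (adjusted p = 0.0198 by limma) and 1 of the 16 genes was called, against 6 lower and 1 higher with the block. Of all 8251 genes, 133 were called lower with time under IFN-γ (1.61%), against 666 lower and 279 higher with the block.

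The aryl hydrocarbon receptor binds kynurenine. Of 8 genes listed for it and its targets, 7 were measured and none was called with IFN-γ in limma or with the block. Since 0.279% of all genes were called higher in limma at 4 h and 0.182% at 16 h, this says little. Ahr itself read 8.92 to 15.0, under the antisense median on all arrays. Of 8 genes listed for NAD synthesis, to which the kynurenine pathway leads, 2 were measured. Nampt, the salvage enzyme of NAD synthesis, read 363 and 404 in IFN-γ at 4 h, against 176 and 201 in medium at 4 h. It rose by 1.02 at 4 h (adjusted p = 0.0408 by limma), and at 16 h its difference was 0.85 (0.0987, and 0.00177 with the block). Nmrk1, a nicotinamide riboside kinase, was at -0.24 and -0.10.

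Genes reported to regulate Ido1 in dendritic cells were measured by 19 of 22 listed. Irf1, the transcription factor that drives both Ido1 and Wars, read 1866 and 1911 in IFN-γ at 4 h, against 1036 and 1081 in medium at 4 h. The groups stood far apart for the spread within each. It rose by 0.84 at 4 h (adjusted p = 0.0123 by limma) and by 0.96 at 16 h (0.00750). Socs1, an inhibitor of interferon signalling, rose by 1.39 at 4 h (0.0141) and by 1.51 at 16 h (0.0137). Irf8, a factor of the CD8+ subset, was at 0.61 at 4 h (0.0612, and 0.00892 with the block) and rose by 0.82 at 16 h (0.0158). These were the regulators called with IFN-γ in limma, 2 at 4 h and 3 at 16 h (4 and 3 with the block), with list medians of -0.01 and 0.01. Of all 8251 genes, 23 (0.279%) were called higher at 4 h and 15 (0.182%) at 16 h, and 71 and 42 with the block. Socs3, which promotes loss of the Ido1 protein, was at 0.32 and 0.14, and Tyrobp, the DAP12 adaptor, at -0.47 and -0.41, and neither was called. Tyrobp rose with culture time, by 0.92 in medium (0.00442) and 0.98 under IFN-γ (0.00549).

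The 5485 candidates were probe sets of other genes with a mean above the antisense median in both groups of at least 1 treatment. Those most like Wars over the 8 arrays were found by Pearson correlation of log2 values. For 98606_s_at they were Cnn3 and Cxcl9 at 0.993, Pkib at 0.991, Nampt at 0.989 and Gbp7 at 0.984. For 98605_at they were Tnfaip2 at 0.985, Cxcl9 at 0.975, Irf1 at 0.974, Noc4l at 0.966 and Irf8 at 0.962. For 161337_f_at they were Irf1 at 0.986, Irf8 at 0.979, Cxcl9 at 0.978, Tnfaip2 at 0.975 and Cnn3 at 0.968. Cxcl9, a chemokine that draws T cells, was the 1 gene in all 3 sets. It read 519 and 615 in IFN-γ at 4 h, against 30.5 and 34.1 in medium at 4 h, where it lay under the antisense median of its arrays. Cnn3 read 43.0 and 51.7 in medium at 16 h, where its mean lay under the antisense median. Both Cxcl9 and Cnn3 became candidates only through the IFN-γ groups, where they were high.

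The Ido1 probe set 161824_r_at had other neighbours: Txnrd3 at 0.986, Krt8 at 0.982, Gdf9 at 0.981, Prkd2 at 0.980 and Eda at 0.977, over 5488 candidates. None of these was called with IFN-γ at either time. Txnrd3, a thioredoxin reductase, read 589 and 450 in IFN-γ at 16 h and 561 and 476 in medium at 16 h, high on the array numbered 1 in both groups, as Ido1 161824_r_at was. Ido1 97731_at was under the antisense median in every group and was given no neighbours. These likenesses rest on 8 arrays that share groups and scaling, and say nothing of shared control.

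**Figure D4:**
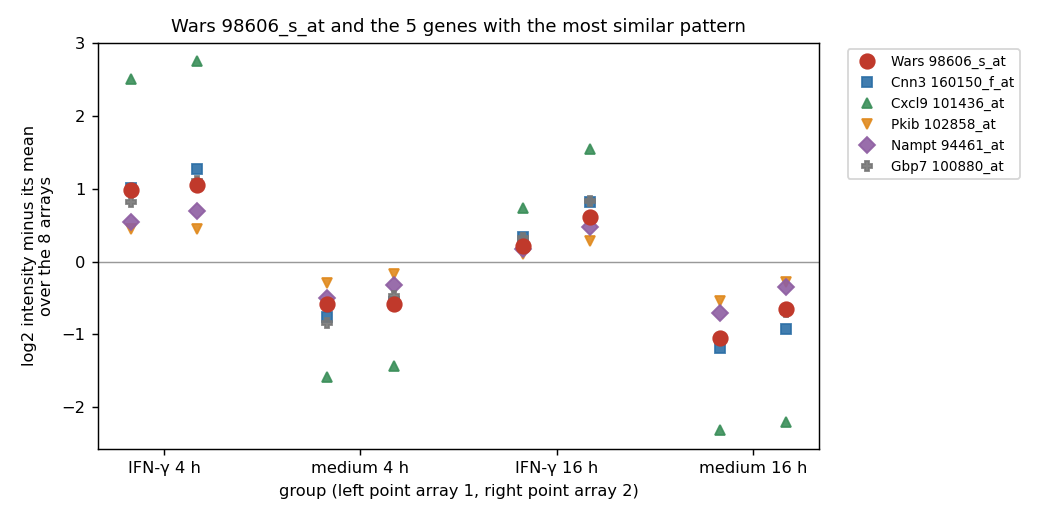
Log2 intensity on each of the 8 arrays by group, relative to the probe set's own mean over the arrays, for Wars 98606_s_at and the 5 genes most like it. Cnn3, Cxcl9, Pkib, Nampt and Gbp7 share the shape of Wars (Pearson correlations of 0.984 to 0.993). The Cxcl9 readings in medium lie under the antisense median of their arrays, as does the Cnn3 mean in medium at 16 h.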

How the data were processed

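Total RNA of 8 samples was measured on the Affymetrix MG-U74Av2 array. The authors deposited 1 intensity per probe set and array, made with RMA per the submitters' processing notes; its version and settings are not given in the sources used here. The deposited intensity values are linear (2.65 to 12523.5), so log2 was taken with no pseudocount. The 66 array controls among the 12488 probe sets were dropped, which leaves 12422 tested; 10833 have 1 gene symbol, 396 several and 1193 none. RMA puts all arrays on a shared scale and can understate changes of dim probe sets. R 4.3.3 and limma 3.58.1 fitted 4 group means over all 8 arrays, with Benjamini-Hochberg adjustment over 12422 probe sets, called under an adjusted p of 0.05. Lists use 1 probe set per gene, the brightest over all arrays.

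Members and lists were chosen with earlier results of these data known. Named genes are all member probe sets, up to 4 genes per list with the smallest p for IFN-γ, a set list of pathway genes, and the 5 genes most like each eligible member. Same-numbered arrays deviated together in all 6 pairs of groups (correlations 0.367 to 0.740 over probe sets). The labels state no pairing, so the main limma test was fitted without it, and this shared deviation stayed in the spread between arrays that it measures. The fit with the replicate block takes the pairing from the array numbers. It is given where it changes a call of a member or a call with IFN-γ that is stated for a named gene. Array number limits the precision. Scripts were tested on simulated data. The alternatives were quantile scaling, median centring, a floor at the antisense median, a pseudocount of 16, removal of the dimmest 40% of probe sets, the mean per gene, only the groups compared, the block, and leaving out each array. The array names no genome build, so no positions are given.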

Additional observations from a re-analysis of the deposited data

Results flagged for a closer look

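The Ido1 probe set 97731_at was higher at 16 h than at 4 h in medium on both arrays and lower under IFN-γ on both, so the groups moved in opposite ways with time. It read 21.2 and 19.6 in medium at 16 h, against 15.7 and 16.1 in medium at 4 h, and 22.3 and 19.4 in IFN-γ at 16 h, against 26.4 and 25.7 in IFN-γ at 4 h. The difference of the effects was -0.68, with an adjusted p of 0.672 by limma and 0.0940 with the replicate block. All of these readings lay under the antisense median of their arrays.

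Arnt, the partner of the aryl hydrocarbon receptor, was higher with IFN-γ on both arrays at 4 h and lower on both at 16 h. It read 57.9 and 61.4 in IFN-γ and 55.9 and 50.5 in medium at 4 h, and 60.6 and 60.8 in IFN-γ and 62.1 and 66.3 in medium at 16 h. The difference of the effects was -0.25 and did not pass the test (adjusted p = 0.9998 by limma). Arnt read close to the antisense controls, with its lowest group mean 0.04 above their median (log2). Of all probe sets, 15.4% were higher without overlap at 4 h and 9.85% lower at 16 h.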

How the results depend on the processing

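Of 524 alternative values of 30 results, 427 kept their direction and side of the threshold (or, for counts, stayed within 1.5 times) and 97 did not. Every Wars difference with IFN-γ stayed above 0 under every alternative run. The causes of the changes below were not tested. With the replicate block, Wars 98605_at (0.64 at 16 h, adjusted p = 0.0155), Wars 161337_f_at (0.55 at 4 h, 0.0262, and 0.55 at 16 h, 0.0302), Ido1 97731_at (0.71 at 4 h, 0.00511, and 0.36 with time in medium, 0.0362) and Wars 98606_s_at (-0.61 with time under IFN-γ, 0.00948) passed the test, and the block changed no other member's call. With a floor at the antisense median, Wars 98605_at at 16 h (0.64, 0.0231) and Wars 98606_s_at with time under IFN-γ (-0.61, 0.0154) passed; Ido1 161824_r_at turned to 0.0055 at 16 h and the Wars 161337_f_at difference of effects to -0.092. Every reading of Ido1 97731_at lies under this floor, which therefore gives no value for it. With the mean per gene, Wars was 0.97 at 4 h and 0.82 at 16 h and passed at both (adjusted p = 0.00516 and 0.0159), and its difference of effects was -0.15; Ido1 was 0.32 at 4 h, 0.0019 at 16 h, -0.32 for the difference and -0.042 with time under IFN-γ. With only the groups compared, Wars 98606_s_at at 16 h was 1.26 and lost its call (0.204), while Wars 161337_f_at (0.55, 0.0495) and Ido1 97731_at (0.71, 0.0184) at 4 h passed. Ido1 97731_at at 4 h also passed with quantile scaling (0.71, 0.0201) and median centring (0.71, 0.0415), where Wars 98605_at lost its call (0.75, 0.0507). With a pseudocount of 16, Wars 98606_s_at at 16 h was 1.15 and lost its call (0.0575), and the Wars 161337_f_at difference of effects was -0.012. Leaving out both 16 h arrays numbered 1, chosen after seeing the data, gave 0.55 (0.0495) for Wars 161337_f_at and 0.71 (0.0184) for Ido1 97731_at at 4 h, both passing, and -0.016 for Ido1 97731_at at 16 h.

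Leaving out 1 array at a time, where the lone array of a group is assumed to vary like the other groups, gave, at 4 h, 0.63 to 0.88 for Wars 98605_at, called in 2 of 8 runs, 1.57 to 1.63 for Wars 98606_s_at, called in 4 of 8, and 0.69 to 0.73 for Ido1 97731_at, called in 2 of 8. At 16 h it gave 1.07 to 1.46 for Wars 98606_s_at, called in 2 of 8, -0.074 to 0.13 for Ido1 97731_at and -0.19 to 0.14 for Ido1 161824_r_at. The difference of effects was -0.23 to 0.016 for Wars 98605_at, -0.084 to 0.086 for Wars 161337_f_at and -0.12 to 0.22 for Ido1 161824_r_at, and the change of Wars 98606_s_at with time under IFN-γ was -0.81 to -0.42, called in 1 of 8, without IFN-γ array 2 of 16 h. The number of probe sets called at 4 h was 32, against 157 with the block, 93 with only the groups compared or without both 16 h arrays numbered 1, 76 with the floor and 8 to 67 without 1 array. At 16 h it was 32, against 105 with the block, 7 with only the groups compared, 52 with the floor and 10 to 38 without 1 array; for the difference of effects 0, against 30 with the block and 19 with the floor. With time in medium it was 531, against 1567 with the block and 73 to 923 without 1 array, and under IFN-γ 263, against 1259 with the block, 120 with only the groups compared, 481 with the floor and 27 to 708 without 1 array. Ido1 97731_at has no value after removal of the dimmest 40%. With 2 arrays a group, readings near the antisense controls limit what Ido1 can show.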
